A study of Mus musculus with 12 samples.

Results

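The genes of glutamate and GABA uptake described here were Slc1a2, Slc1a3, Slc6a11 and Glul, chosen by their names in the authors' deposited table of astrocytes against non-astrocytes. These 4 genes were measured by 5 probe sets, 1 each for Slc1a2 (10474141), Slc1a3 (10427590) and Slc6a11 (10540822) and 2 for Glul (10350753 and 10374453), out of 28467 probe sets tested, of which 5116 carried the name of a gene. RNA came from spinal cords of mice at postnatal day 7 that carried the Aldh1l1-GFP transgene on a Swiss-Webster background, in which green fluorescent protein is made under the control of Aldh1l1, a gene of astrocytes. The cords were split into a dorsal and a ventral part, dissociated with papain and sorted by flow cytometry. The 4 groups were GFP-positive astrocytes of the dorsal and of the ventral part and GFP-negative non-astrocytes of the dorsal and of the ventral part, with 3 biological replicates each and 1 array per replicate. All groups carried the transgene, and the non-astrocytes are a mixture of every other cell that survived dissociation. The number of animals behind a sample is not stated in the labels.

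Neurons release glutamate and GABA, and astrocytes take both up from the extracellular space. Slc1a2 encodes GLT-1 and Slc1a3 encodes GLAST, the glutamate transporters of astrocytes, which draw glutamate into the cell with the sodium gradient. Slc6a11 encodes the GABA transporter GAT-3, and Glul encodes glutamine synthetase, which joins glutamate and ammonia to glutamine, the form in which astrocytes hand it back to neurons. Glutamine synthetase is also known from some oligodendrocytes of the mouse spinal cord, and GLAST from the radial glia from which astrocytes arise.

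The sort was checked first, because the source label of the GFP-negative samples has the same wording as that of the GFP-positive samples and only their titles and cell type separate them. The 9 of 10 listed astrocyte markers measured under a name were all higher in astrocytes, by log2 differences between 2.47 for Fgfr3 and 5.09 for Aqp4. Their summed linear signal was 25168.1 to 29139.3 in dorsal astrocytes and 24347.3 to 27886.5 in ventral astrocytes, against 1577.4 to 1800.6 in dorsal non-astrocytes and 1509.0 to 2072.5 in ventral non-astrocytes. These markers could be measured only if the authors had listed their probe sets, mostly for a difference between these sorts. The check thus rests on the direction and size of the differences and not on their presence. Array medians lay between 6.57 and 6.62 on the log2 scale. Arrays of a group correlated with each other at 0.986 to 0.994 across probe sets, and precision is set by having 3 arrays per group.

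All 4 uptake genes were far higher in astrocytes than in non-astrocytes of the same region, and the 6 astrocyte arrays lay above the 6 non-astrocyte arrays for each of the 5 probe sets. Averaged over both regions, the signal of Slc6a11 was 37.6-fold that of non-astrocytes, Slc1a2 16.4-fold and Slc1a3 13.2-fold. Glul differed less, by 4.0-fold on probe set 10374453 and by 2.70-fold on probe set 10350753. These values are a description without a test, since a gene could be named only if the authors listed it, and their table holds probe sets of an adjusted p under 0.15 in this very contrast. With limma, 36.2% of all probe sets and 99.6% of the named ones passed an adjusted p of 0.05 here, 16.5% of all were higher in astrocytes (12.0% in the dorsal and 12.2% in the ventral part), and 10.3% lay above the non-astrocytes in every array. Nothing is read from the 5 of 5 of the uptake genes in any of these. The deposited values carry no detection call, so where the non-astrocyte signal lies near or under the array median, as it does for Slc6a11, the probe set is not shown to be above background there and the fold and log2 difference may be lower bounds. RNA was measured in bulk, so that fewer cells of a type and less RNA per cell cannot be told apart.

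**Figure D1:**
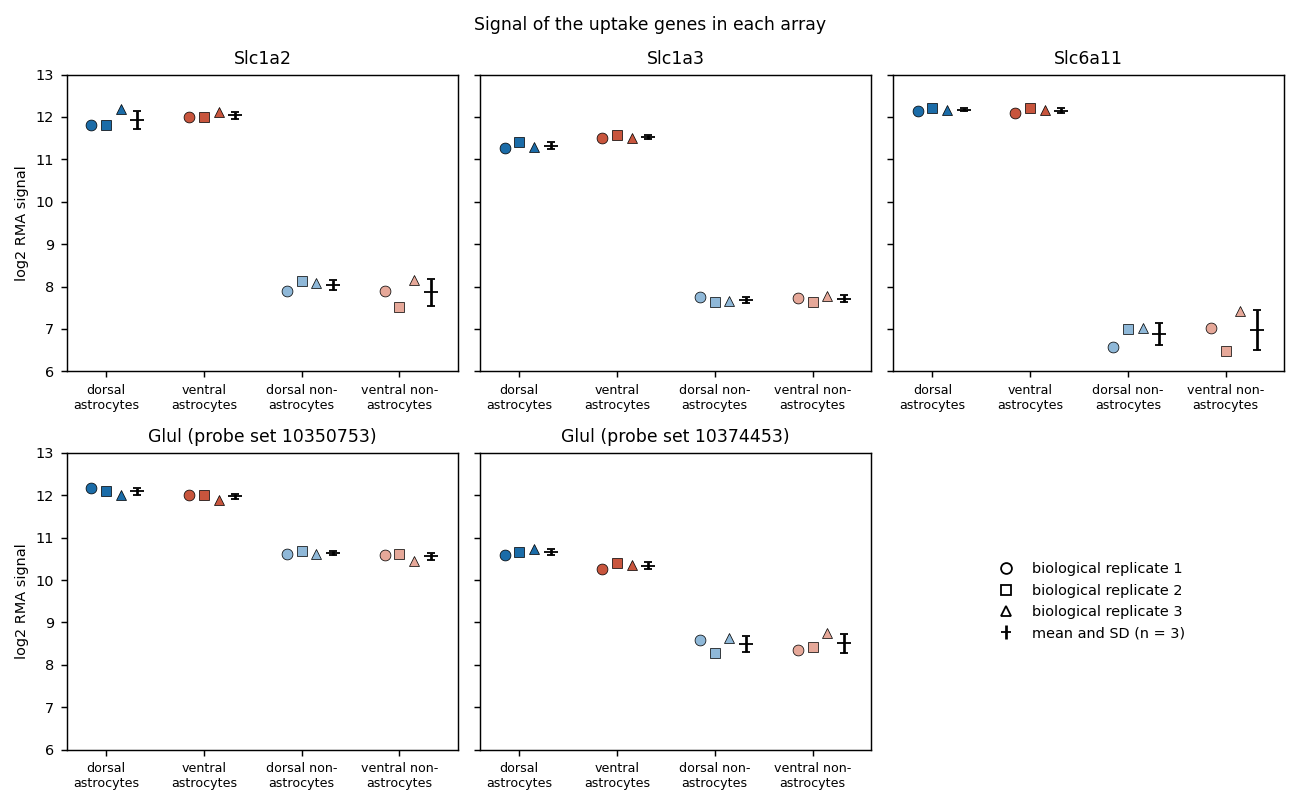
Log2 RMA signal (y axis) of the 5 probe sets of Slc1a2, Slc1a3, Slc6a11 and Glul in each of the 12 arrays, by group (x axis), with the mean and SD of 3 replicates beside the points. Every astrocyte array lies above every non-astrocyte array in each panel, and dorsal and ventral arrays of the same sort lie close together.

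Slc1a2 had a log2 signal of 11.7998, 11.82 and 12.18 in dorsal astrocytes and 12.00, 11.99 and 12.12 in ventral astrocytes, against 7.89, 8.12 and 8.08 in dorsal non-astrocytes and 7.90, 7.52 and 8.16 in ventral non-astrocytes (replicates 1, 2 and 3). Both astrocyte groups were high and overlapped, with the highest value in dorsal replicate 3, and the lowest value of all was ventral non-astrocyte replicate 2. The sort difference was 3.90 (SE 0.15) in the dorsal part, a 14.9-fold level, and 4.17 (SE 0.15) in the ventral part, an 18.1-fold level. The group means, from high to low, were 12.04 ± 0.07 in ventral and 11.93 ± 0.21 in dorsal astrocytes, and then 8.03 ± 0.12 in dorsal and 7.86 ± 0.32 in ventral non-astrocytes (SD, n = 3 each), and the regions of a sort did not differ beyond their spread.

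Slc1a3 had a log2 signal of 11.27, 11.41 and 11.28 in dorsal astrocytes and 11.50, 11.58 and 11.51 in ventral astrocytes, against 7.76, 7.64 and 7.65 in dorsal non-astrocytes and 7.73, 7.63 and 7.78 in ventral non-astrocytes. All 3 ventral astrocyte arrays were above all 3 dorsal ones, whereas the non-astrocyte groups overlapped. The sort difference was 3.64 (SE 0.08) in the dorsal part and 3.81 (SE 0.08) in the ventral part, 12.4-fold and 14.1-fold.

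Slc6a11 had a log2 signal of 12.14, 12.21 and 12.17 in dorsal astrocytes and 12.09, 12.20 and 12.17 in ventral astrocytes, against 6.57, 7.01 and 7.03 in dorsal non-astrocytes and 7.03, 6.49 and 7.43 in ventral non-astrocytes. The 6 astrocyte arrays spanned 0.12 on the log2 scale, and the 6 non-astrocyte arrays spanned 0.94. Among the non-astrocytes the lowest array was ventral replicate 2 and the highest ventral replicate 3, which were also the lowest and the highest for Slc1a2 and Slc1a3. The summed linear signal of the astrocyte markers was 1509.0 in the first and 2072.5 in the second of these arrays, likewise the lowest and the highest of the 6 non-astrocyte arrays, and its part in these values was not tested. The sort difference was 5.30 (SE 0.19) in the dorsal part and 5.17 (SE 0.19) in the ventral part, 39.4-fold and 35.9-fold.

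Glul probe set 10350753 had a log2 signal of 12.18, 12.10 and 12.00 in dorsal astrocytes and 12.00, 12.02 and 11.89 in ventral astrocytes, against 10.60, 10.69 and 10.62 in dorsal non-astrocytes and 10.60, 10.62 and 10.46 in ventral non-astrocytes. Glul probe set 10374453 had 10.59, 10.66 and 10.74 in dorsal astrocytes and 10.25, 10.41 and 10.37 in ventral astrocytes, against 8.58, 8.27 and 8.64 in dorsal non-astrocytes and 8.35, 8.42 and 8.76 in ventral non-astrocytes. Among the non-astrocytes, ventral replicate 3, where the 3 transporters were highest, was the lowest array on the first probe set and the highest on the second, on which dorsal replicate 2 was lowest. Both probe sets separated the sorts in both regions, and only on the second were all 3 dorsal astrocyte arrays above all 3 ventral ones. The sort difference of the first was 1.46 (SE 0.09) in the dorsal and 1.41 (SE 0.09) in the ventral part, and that of the second was 2.17 (SE 0.12) and 1.83 (SE 0.12). The probe sets thus differed in the size of the change, and the files do not say which stretch of Glul, or which near-identical copy of it, each one reads.

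The signal left in the GFP-negative cells differed between the genes. As a share of the astrocyte signal, it was 2.66% for Slc6a11, 6.09% for Slc1a2 and 7.56% for Slc1a3, against 2.93% to 18.1% for the 9 astrocyte markers. The Slc6a11 share may be an upper bound, since its non-astrocyte signal lay near the array median. The same holds for markers such as Aqp4 (the 2.93%), Gfap, Aldh1l1 and Gjb6, with non-astrocyte means of 6.54, 6.57, 5.89 and 5.61. The shares of Slc6a11 and Aqp4 thus have no order. For Glul the share was 25.0% on probe set 10374453 and 37.0% on probe set 10350753, above each of the 9 astrocyte markers. The non-astrocytes held the other glia of the cord, with a summed linear signal of the 10 myelinating oligodendrocyte markers of 5911.8 to 8263.5 in dorsal astrocytes and 7886.1 to 8452.1 in ventral astrocytes, against 22349.3 to 26542.7 in dorsal non-astrocytes and 27924.7 to 30493.9 in ventral non-astrocytes. All 10 of these markers, all 7 oligodendrocyte precursor markers and all 11 microglia markers were lower in astrocytes. By contrast, 4 of the 5 measured of 7 ependymal and radial glia markers were higher, averaged over both regions. In limma 2 passed as higher in the dorsal and 4 in the ventral part. The gene Dnah12 of this list showed no sort difference, at -0.02 (SE 0.21) in the dorsal and -0.01 (SE 0.21) in the ventral part. Neuron markers were split: averaged over both regions, 3 of the 5 measured of 11 were lower in astrocytes and 2, Nefl and Nefm, were higher. The part of any other cell type in the Glul signal was not tested.

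The series is titled for positional cues that astrocytes encode, and the next comparison set the dorsal against the ventral level of each uptake gene. None of the 5 probe sets passed in limma between dorsal and ventral astrocytes, with adjusted p from 0.38 to 0.98, where 0.341% of all probe sets passed. Slc6a11 stood at 0.02 (SE 0.19, 95% interval -0.39 to 0.43, dorsal minus ventral on the log2 scale) and Slc1a2 at -0.10 (SE 0.15, -0.43 to 0.22). Each SE rests on 1 spread pooled over all 4 groups. For Slc6a11 the SD was 0.03 in dorsal and 0.06 in ventral astrocytes, against 0.26 in dorsal and 0.47 in ventral non-astrocytes (n = 3 each). The width of its interval thus comes largely from the non-astrocyte arrays. Slc1a3 was at -0.21 (SE 0.08, -0.39 to -0.03), with a mean of 11.32 ± 0.08 in dorsal and 11.53 ± 0.04 in ventral astrocytes (SD, n = 3 each). Glul was at 0.32 (SE 0.12, 0.05 to 0.59) on probe set 10374453, with 10.66 ± 0.08 in dorsal and 10.34 ± 0.08 in ventral astrocytes (SD, n = 3 each), and at 0.12 (SE 0.09, -0.06 to 0.30) on probe set 10350753. The 2 glutamate transporters thus had lower and both Glul probe sets higher dorsal means, with no difference past the threshold.

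At an unadjusted p under 0.05, 2 of the 5 probe sets would pass in limma, those of Slc1a3 (adjusted p = 0.40) and Glul 10374453 (adjusted p = 0.38), against 10.4% of all probe sets. The same 2 had groups that did not overlap, which held for 12.5% of all probe sets. The 5 intervals reached no further than -0.43 for Slc1a2 and 0.59 for Glul 10374453, and each lay well inside the sort difference of its gene. Over the 5 probe sets the median regional difference was 0.02, against -0.02 over all probe sets. In the same astrocyte arrays, the summed linear signal of the 7 oligodendrocyte precursor markers was 1758.0 to 1924.9 dorsally and 2258.8 to 2612.4 ventrally. That of the 5 measured of 11 neuron markers was 868.9 to 1193.0 dorsally and 1022.0 to 1671.1 ventrally. The neuron list was split: dorsal and ventral astrocyte means were 8.54 and 9.30 for Nefl and 7.61 and 8.46 for Nefm. They were 8.17 and 8.08 for Tubb3, 5.53 and 5.54 for Elavl4, and 6.22 and 6.51 for Dcx. Averaged over both regions, Nefl and Nefm were also higher in astrocytes than in non-astrocytes, and the other neuron markers were lower. In the dorsal part alone, Nefl at 0.37, Nefm at 0.31 and Tubb3 at -0.67 did not pass (adjusted p = 0.25, 0.34 and 0.070 in limma). No precursor or neuron marker passed by region in astrocytes, and 1 of the 5 measured ependymal and radial glia markers did. It was Dnah12, lower dorsally at -1.49 (SE 0.21, adjusted p = 0.010 in limma). In non-astrocytes Dnah12 was also at -1.49 (SE 0.21, adjusted p = 0.037 in limma). The summed signal of these 5 in astrocytes overlapped, at 9970.1 to 10776.7 dorsally and 9077.0 to 10350.5 ventrally. The part of any of these lists in the small differences of Slc1a3 and Glul was not tested.

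Between dorsal and ventral non-astrocytes 0 of the 5 probe sets passed in limma (adjusted p = 1.0 for each), and 0 of 5 at an unadjusted p under 0.05, against 0.0492% and 5.25% of all probe sets. The differences ran from -0.11 (SE 0.19) for Slc6a11 to 0.17 (SE 0.15) for Slc1a2, and dorsal and ventral values overlapped for each of the 5, whereas all dorsal arrays were higher for 5.73% and all lower for 7.04% of all probe sets. Within same-numbered pairs of these arrays, only Glul 10350753 was higher dorsally in 3 of 3, with 10.6035 against 10.5962 in replicate 1. Its mean difference was 0.08 (adjusted p = 1.0 in limma with the replicate number as a block). The share of all probe sets higher dorsally in 3 of 3 pairs was not counted, and nothing is read from this. The difference between the regional contrasts of the 2 sorts, which also says whether the sort difference is larger in one region, was called for 0 of the 5 probe sets, and for 0 at an unadjusted p under 0.05, against 0.0632% and 7.23% of all. It was furthest from 0 for Glul 10374453, at 0.33 (SE 0.17, 95% interval -0.04 to 0.71, adjusted p = 0.74 in limma), and for Slc1a2, at -0.27 (SE 0.21, -0.73 to 0.19). A p that misses the threshold does not show that the regions are alike: the intervals still held -0.73 for Slc1a2 and 0.71 for Slc6a11 and Glul 10374453.

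**Figure D2:**
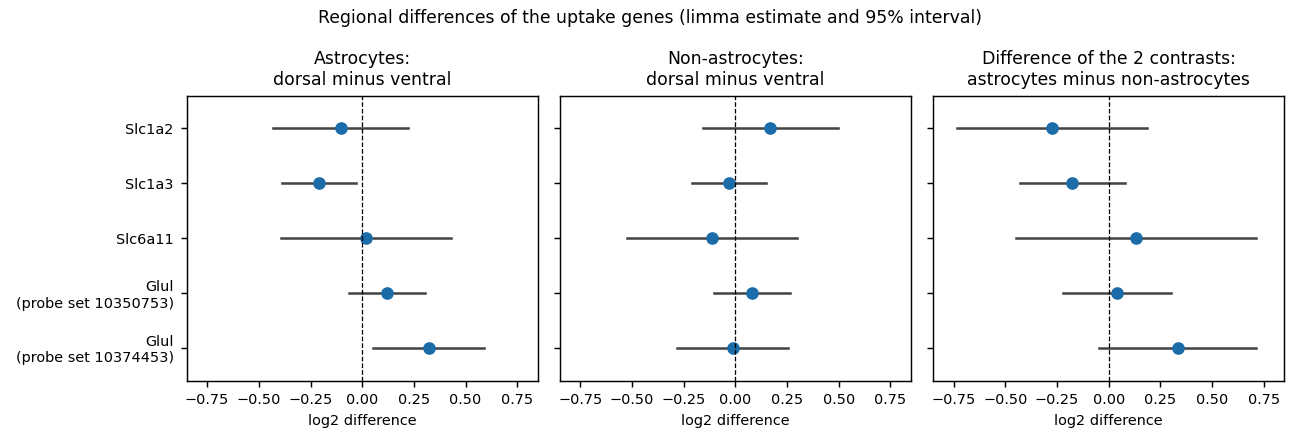
Log2 difference (x axis, limma estimate as a point and 95% interval as a line) of the 5 probe sets (y axis) between dorsal and ventral astrocytes, between dorsal and ventral non-astrocytes, and of the first contrast minus the second. The intervals of Slc1a3 and of Glul 10374453 leave out 0 in astrocytes, both without passing after adjustment, and all other intervals include 0.

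The promoters are shown because these genes were high in the same sorted cells, so that what lies upstream of each start can be compared. The sequences are the 250 bases before the start of Slc1a3 (chr15:8710808-8711057, minus strand), Slc6a11 (chr6:114130991-114131240, plus strand) and Glul (chr1:153899679-153899928, plus strand), 5′ to 3′, from RefSeq on GRCm38.p6. Capitals mark, on either strand, CCAAT, the nuclear factor I half-site TTGGC, the GC box GGGCGG and the nuclear receptor half-site AAGGTCA, the last searched after it had been seen in Slc6a11.
Slc1a3: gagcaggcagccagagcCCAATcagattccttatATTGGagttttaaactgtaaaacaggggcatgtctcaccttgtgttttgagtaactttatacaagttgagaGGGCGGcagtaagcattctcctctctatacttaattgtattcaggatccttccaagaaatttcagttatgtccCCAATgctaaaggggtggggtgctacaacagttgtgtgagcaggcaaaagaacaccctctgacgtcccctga
Slc6a11: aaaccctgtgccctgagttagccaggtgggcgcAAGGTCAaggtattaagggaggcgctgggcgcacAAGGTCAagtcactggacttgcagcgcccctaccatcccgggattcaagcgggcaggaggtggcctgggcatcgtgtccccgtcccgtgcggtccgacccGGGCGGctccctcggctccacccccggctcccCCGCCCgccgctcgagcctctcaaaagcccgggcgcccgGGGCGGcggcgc
Glul: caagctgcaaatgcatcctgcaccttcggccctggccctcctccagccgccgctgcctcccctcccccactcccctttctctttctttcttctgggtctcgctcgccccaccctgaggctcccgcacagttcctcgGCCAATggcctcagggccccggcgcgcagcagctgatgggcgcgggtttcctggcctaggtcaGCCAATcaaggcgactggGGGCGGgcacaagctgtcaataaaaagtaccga

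The 3 promoters shared the GC box, with 1 match in Slc1a3, 3 in Slc6a11 and 1 in Glul, a motif that 32.7% of 32851 promoter windows of this length hold. CCAAT occurred 3 times in Slc1a3 and 2 times in Glul, and in 33.8% of windows. The 2 matches of TTGGC in Glul overlap its CCAAT matches in the run GCCAAT, and TTGGC occurs in 41.5% of windows. AAGGTCA occurred 2 times in Slc6a11 and in 4.08% of windows. The window given for Slc1a2 lies at a start site 48199 bases into the gene and is not printed. A match is a description of the letters and not of a bound site.

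Related genes were described from a list of 88 genes by role, of which 52 were measured under a name. Because the names come from the authors' table of this comparison, 99.6% of named probe sets pass in limma between the sorts, and the counts are a description. Of the 52, 35 were higher and 17 lower in astrocytes. Their median log2 difference was 1.31, against -0.01 over all probe sets and -0.39 over the named ones. With this negative median, more of the named probe sets were lower than higher in astrocytes. The vesicle carriers of glutamate and GABA had 0 of 4 measured under a name.

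Of the 6 measured other surface carriers of glutamate, GABA, glycine and cystine, 5 were higher in astrocytes and 1 lower. Slc7a11, the subunit of the exchanger that trades glutamate for cystine, averaged 9.06 ± 0.37 in the astrocyte arrays and 5.34 ± 0.30 in the others (SD, n = 6 each), a log2 difference of 3.72 (SE 0.14), which may be a lower bound because the second level lies under the array medians. Slc6a9, the glycine transporter of glia, averaged 11.44 ± 0.10 in astrocytes and 8.76 ± 0.29 in non-astrocytes, a difference of 2.68 (SE 0.09). Slc1a1, named after its values were seen, encodes the glutamate transporter of neurons and ran the other way, at 7.71 ± 0.26 in astrocytes and 9.44 ± 0.16 in non-astrocytes, a difference of -1.73 (SE 0.11), and -2.31 (SE 0.10) on its second probe set. Within the transporter family of Slc1a2 and Slc1a3 the sort difference thus had both signs.

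Glutamine carriers divided into 2 higher and 2 lower of 4. Slc38a3, the system N carrier through which astrocytes release glutamine, averaged 10.80 ± 0.16 in the astrocyte arrays and 7.65 ± 0.30 in the others (SD, n = 6 each), a difference of 3.15 (SE 0.10). Slc38a2, a system A carrier that takes glutamine up, was lower by a difference of -1.71 (SE 0.09), and Slc7a6, an exchanger of glutamine and basic amino acids, by -1.24 (SE 0.15). Among enzymes of glutamate, glutamine and GABA, 7 of 10 were higher and 3 lower. Glud1, which feeds glutamate into the citrate cycle, averaged 11.41 ± 0.05 in the astrocyte arrays and 8.80 ± 0.14 in the others (SD, n = 6 each), a difference of 2.60 (SE 0.07). Aldh5a1 and Abat, which break GABA down, were at 1.89 (SE 0.11) and 1.73 (SE 0.07). Among the lower ones, Aldh18a1 and Got2 are named after their values were seen: Aldh18a1, which starts the path from glutamate to proline, was at -0.64 (SE 0.09), and Got2, the mitochondrial aspartate transaminase, was at -0.60 (SE 0.09).

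Of the genes that handle sodium and potassium, on whose gradients uptake runs, 6 of 7 were higher in astrocytes. The sodium pump subunit gene Atp1b2, also one of the 9 astrocyte markers, had a difference of 3.30 (SE 0.08), and the potassium channel gene Kcnj16 had 3.00 (SE 0.07). Glutamate and GABA receptors had 15 of 23 higher and 8 lower, among them the GABA-A receptor subunits Gabrb1 at 3.88 (SE 0.10), Gabra2 at 3.76 (SE 0.16) and Gabra4 at 3.22 (SE 0.10). The non-astrocyte means of these 3 were 5.99, 5.50 and 5.45, under the array medians, so their differences may be lower bounds and have no order. Both measured genes of 7 whose proteins are reported to bind the transporters were lower, Slc9a3r2 at -0.70 (SE 0.08) and Dlg1 at -0.66 (SE 0.05).

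**Figure D3:**
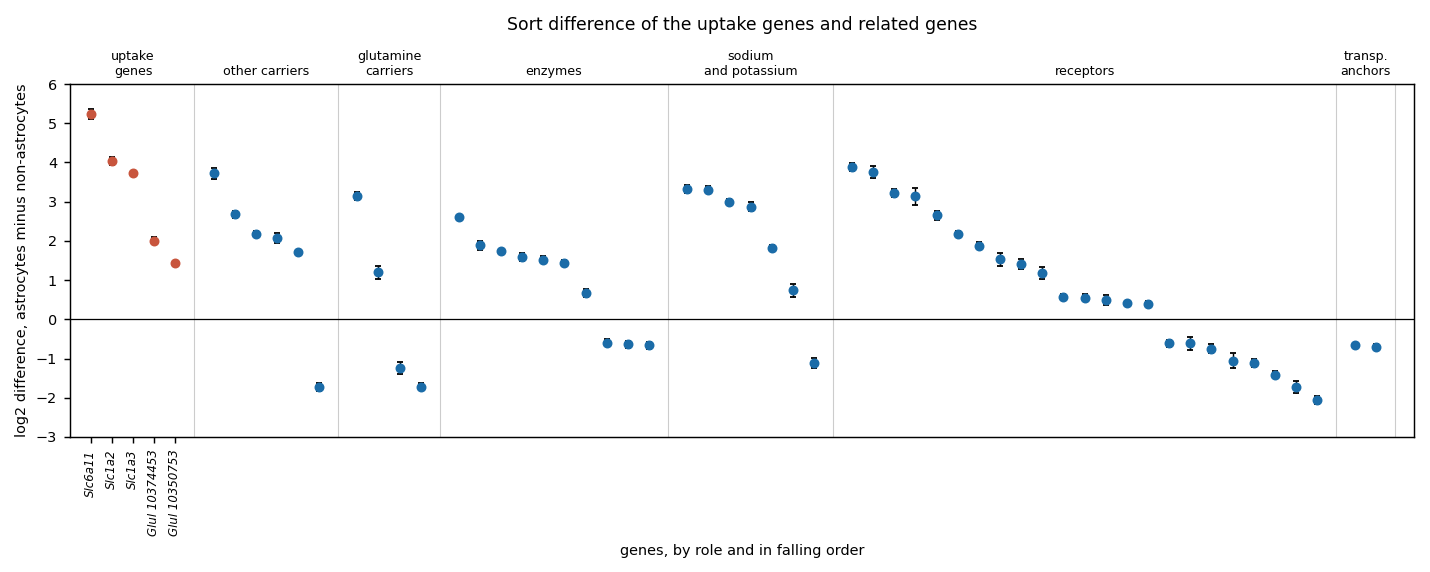
Log2 difference of astrocytes minus non-astrocytes (y axis), with its standard error in limma, for the 5 probe sets of the uptake genes (red) and the brightest probe set of each of 52 related genes (blue), by role and in falling order (x axis, with names for the uptake genes). The uptake genes lie between 1.44 and 5.23, and each other group of 4 or more genes reaches from positive to negative values.

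By region, 1 of the 52 related genes passed between dorsal and ventral astrocytes in limma, against 0.341% of all and 1.21% of the named probe sets. It was Gabbr2, a subunit of the GABA-B receptor, at 9.57 ± 0.16 in dorsal and 8.79 ± 0.25 in ventral astrocytes (SD, n = 3 each), a difference of 0.77 (SE 0.12, adjusted p = 0.020 in limma). Its call was lost without dorsal astrocytes 2 (adjusted p = 0.073 in limma), without dorsal astrocytes 3 (adjusted p = 0.060 in limma) and when the fit held the astrocyte arrays alone (adjusted p = 0.18 in limma). In non-astrocytes the difference of Gabbr2 was 0.39 (SE 0.12, adjusted p = 0.56 in limma), and the test of the difference between both gave an adjusted p of 0.67 in limma. Between dorsal and ventral non-astrocytes 0 of the 52 passed in limma, against 0.117% of the named probe sets, and for the difference between the regional contrasts 0 of the 52, against 0.274%.

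The genes whose signal followed each uptake gene most closely were found by Pearson's r over the 12 arrays, across 4575 named genes. For Slc1a2 they included Egfl6 (r = 0.998) and the cation channel gene Trpm3 (0.998). For Slc1a3 they were the endosomal adaptor gene Tom1l1 (0.997), Pygb (0.997), which encodes the glycogen phosphorylase of brain, and Egfl6 (0.997). For Slc6a11 they were Pygb (0.998), the water channel gene Aqp4 (0.998) and the bicarbonate transporter gene Slc4a4 (0.998). For Glul 10350753 they were Vta1 (0.996), Kcnj16 (0.995) and Aldh1l1 (0.995), the gene on which the sorting marker is based. With 6 arrays at a high and 6 at a low level, r mostly reflects the sort, and the arrays share their normalization.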

How the data were processed

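RNA of sorted cells was amplified, labelled with biotin and hybridised to 12 arrays, per the labels' protocols. The submitters' processing notes name RMA, oligo and limma, without versions or order, and no build is named in the labels or files. As deposited by the authors, the series table holds log2 RMA values for 35556 probe sets. The authors' 2 tables of comparisons repeat these log2 values for listed probe sets, with a linear fold change (ratio), a t statistic (score) and the p-value, raw and adjusted. In the authors' deposited table of astrocytes against non-astrocytes, the fold changes of the uptake genes were 37.62 for Slc6a11, 16.43 for Slc1a2, 13.22 for Slc1a3, 4.0 and 2.70 for Glul, and their adjusted p-values at most 6.16e-09.

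Names were taken from these tables by matching the 12 values of a row to 6 decimals. All 5158 and 39 entries matched, and older names were replaced with current symbols from RefSeq (GRCm38.p6). Of the rows, 476 repeats and a leading run of 6613 unnamed identifiers were left out, as control-type on numbering alone, leaving 28467. The test was limma 3.58.1 in R 4.3.3 (lmFit, eBayes; 1 mean per group, 8 residual and 4.59 prior degrees of freedom), two-sided, Benjamini-Hochberg adjusted over all probe sets, threshold 0.05. It was tested on simulated data. Tables and figures used matplotlib 3.10.9, pandas 2.3.3 and numpy 2.4.6 in Python 3.11.15. A gene of the related list stands for its brightest probe set. The genes, lists and tests were chosen with earlier results of these data known. Named were the 4 uptake genes, per role the 3 related genes of largest sort difference, related genes called by region, and the 3 most alike genes each, some of which are not reported here.

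Replicate numbers, and a number in the authors' array names, are shared by the groups without a stated meaning. Deviations from group means of same-numbered arrays correlated at 0.15 to 0.21 between dorsal and ventral non-astrocytes, against -0.14 to -0.04 for different numbers. Since each same-numbered pair reached 0.1, those arrays were also compared within pairs, with the replicate number as a block in limma. The main test had no such block, so its regional values in non-astrocytes are unpaired. Between dorsal and ventral astrocytes the values were 0.04 to 0.14 for the same number, against -0.10 to 0.03 for different numbers. They do not reach 0.1 in every pair, which does not show that the astrocyte arrays are unpaired. Over all pairs of groups, same-numbered arrays correlated at 0.04 to 0.21 and differently numbered ones at -0.14 to 0.06. Nothing says whether replicates came from separate animals, so p-values measure the spread between these samples.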

Additional observations from a re-analysis of the deposited data

How the results depend on the processing

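Each comparison was repeated under 20 alternatives, 12 of which left out 1 array each (19 for the difference between the regional contrasts, which needs all groups). For the uptake genes, the number called stayed at 0 of 5 for each regional comparison and for the difference between them, and at 5 of 5 for each sort comparison, in all of these, the fit with the replicate number as a block included (0 and 5 called with the replicate block, so the pairing changed no call of the uptake genes). The 5 of 5 between the sorts is a description, since genes were named only if the authors listed them, mostly for this contrast. Averaged over both regions, 36.2% of all and 99.6% of named probe sets passed it in limma. The adjusted p in limma between dorsal and ventral astrocytes ranged from 0.34 to 0.75 for Slc1a3 and from 0.29 to 0.73 for Glul 10374453. Signs turned in 10 cases, each an uncalled value near 0 and each without 1 array. Without 1 array, the regional difference in non-astrocytes ranged from -0.3595 to 0.1107 for Slc6a11, from -0.0942 to 0.1119 for Glul 10374453, from -0.073 to 0.0015 for Slc1a3 and from -0.00069 to 0.3171 for Slc1a2. In astrocytes it ranged from -0.0134 to 0.0439 for Slc6a11. The difference between the regional contrasts ranged from -0.091 to 0.3792 for Slc6a11 and from -0.00064 to 0.0918 for Glul 10350753. The values that turned came without ventral non-astrocytes 3 (4 cases), dorsal non-astrocytes 1 (2 cases, both Slc6a11) or 1 of 4 other arrays (1 case each).

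Of the 52 related genes, 1 was called between dorsal and ventral astrocytes. The count was 0 with weights per array, with all rows of the table tested and with only the astrocyte arrays in the fit, and 2 when only named probe sets were tested, a choice made after seeing the data, where Grm7 joined Gabbr2. It ranged from 0 to 2 without 1 array: Gabbr2 was lost without dorsal astrocytes 2 or 3, Grm7 was called without dorsal astrocytes 3 (adjusted p = 0.020 in limma), and the count was 2 without ventral astrocytes 3. No other alternative moved a count. With 3 arrays per group, regional differences within the intervals given are not resolved. RMA signals have no true zero and no detection call, so sort folds against levels near or under the array median may be lower bounds.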
